A study of Mus musculus with 20 samples.

Results

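The mitosis genes are a set of 35 genes whose products carry a cell through mitosis, from the kinases that open it to the proteins that cut the daughter cells apart. A gene counted as measured when a probe set of the array was annotated to its symbol alone, and the brightest such probe set, by its mean over the 20 arrays, stood for the gene. All 35 genes were measured and all 35 passed the filter on dim genes, out of 18193 genes measured in this way and 14063 that passed. The arrays held RNA of 10 populations of haematopoietic cells sorted from mice of the C57BL/6 background, with 2 biological replicates each. The populations were Ter119(+) erythroblasts (Erythroblast), Gr-1(+) neutrophils (Neutrophil), Mac-1(+) monocytes/macrophages (Monocyte), KSL cells (KSL), B220(+) B lymphocytes (B), NK1.1+ NK cells (NK), CD3ε(+)NK1.1(+) NKT cells (NKT), CD4(+) T lymphocytes (CD4T), CD8(+) T lymphocytes (CD8T) and Lineage marker(-) cells (LinNeg). The name KSL usually stands for cells that are Kit-positive and Sca-1-positive but lineage-negative, a fraction enriched for stem cells. LinNeg takes in every cell without the markers of a mature lineage. No treatment or engineered allele is named for any population. Neither the organ, the age and number of the animals, any pooling nor further sorting gates are given in the sources used here.

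Mitosis is driven by Cdk1 with its A-type and B-type cyclins, and by the Aurora and Polo-like kinases. Kinetochores, built on centromeric chromatin, attach chromosomes to the spindle, and the spindle checkpoint holds back the anaphase-promoting complex until every chromosome is attached. That complex, with its activator Cdc20 and its ubiquitin-conjugating enzyme Ube2c, then marks cyclins and securin for destruction, after which the cell divides by cytokinesis. The RNAs of these genes are made mostly in G2 and M phase and are kept low in resting cells. Their promoters are known for a short element called the CHR (cell cycle genes homology region), which binds MuvB complexes, and for CCAAT boxes upstream of it, which bind NF-Y. In blood formation, early erythroblasts, promyelocytes and committed progenitors divide fast, whereas band and segmented neutrophils and resting lymphocytes do not.

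Promoter sequence was at hand for 29 of the 35 genes, as windows from 250 bases before to 50 bases after the start of the gene (RefSeq, GRCm38.p6). No window was at hand for Aurkb, Ccna2, Incenp, Kif20a, Spc24 and Tpx2. The stretches from 120 bases before to 30 bases after the start are shown for 6 genes. Ube2c had the largest rise in erythroblasts. Top2a and Ccnb2 carry the layout known for this class, and Cdc20 has CCAAT boxes on both sides of its CHR match. Kif23 and Racgap1 are the pair called lower in CD4T than in CD8T. Capitals mark the core of the CHR, TTTGAA or its reverse complement TTCAAA, and the CCAAT box or its reverse complement ATTGG.
Ube2c (chr2:164769809-164769958, + strand): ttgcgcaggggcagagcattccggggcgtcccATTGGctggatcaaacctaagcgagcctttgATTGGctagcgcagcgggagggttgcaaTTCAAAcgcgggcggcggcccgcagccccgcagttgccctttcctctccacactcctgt
Top2a (chr11:99024160-99024309, - strand): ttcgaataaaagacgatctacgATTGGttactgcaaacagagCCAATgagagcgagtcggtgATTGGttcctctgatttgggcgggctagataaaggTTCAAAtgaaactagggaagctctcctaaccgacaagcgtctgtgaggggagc
Ccnb2 (chr9:70421525-70421674, - strand): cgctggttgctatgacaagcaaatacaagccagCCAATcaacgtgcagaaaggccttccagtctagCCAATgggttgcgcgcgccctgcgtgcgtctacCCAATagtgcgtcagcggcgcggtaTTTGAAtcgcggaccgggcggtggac
Cdc20 (chr4:118437314-118437463, - strand): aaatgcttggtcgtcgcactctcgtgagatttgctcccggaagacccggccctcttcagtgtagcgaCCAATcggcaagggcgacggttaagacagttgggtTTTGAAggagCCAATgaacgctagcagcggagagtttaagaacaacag
Kif23 (chr9:61946770-61946919, - strand): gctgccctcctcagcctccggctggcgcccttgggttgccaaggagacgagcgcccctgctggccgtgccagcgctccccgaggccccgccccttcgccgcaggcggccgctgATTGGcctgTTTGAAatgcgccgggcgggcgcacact
Racgap1 (chr15:99651627-99651776, - strand): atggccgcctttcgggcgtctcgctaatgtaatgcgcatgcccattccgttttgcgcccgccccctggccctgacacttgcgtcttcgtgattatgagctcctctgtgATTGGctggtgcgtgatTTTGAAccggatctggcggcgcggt

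In Ube2c the CHR match lay 29 bases before the start, below CCAAT boxes at 57 and 88 bases before it. Top2a had a CHR match 23 bases before its start and CCAAT boxes at 58, 78 and 98 bases before it. Kif23 and Racgap1 each had 1 CHR match just after the start, at bases 3 and 6, and 1 CCAAT box 7 and 12 bases before it. Both strands were searched for each motif, and of all matches in these 6 windows only a pair of CCAAT boxes on opposite strands of Ube2c, at 186 and 183 bases before the start, overlapped. Over the 29 windows, 23 (79.3%) held TTTGAA on either strand, and in 21 (72.4%) a match lay within 50 bases of the start. Among all 27025 genes with such a window the shares were 20.2% and 5.72%. At least 1 CCAAT box was present in 22 of the 29 (75.9%) and at least 2 in 15 (51.7%), against 41.1% and 13.3% of all genes. Both motifs stood together in 20 of the 29 (69.0%), against 8.97% of all genes. The DNA replication genes, which peak earlier in the cell cycle, had TTTGAA in 6 of 23 windows (26.1%) and both motifs in 3 of the 23. Their CCAAT shares lay nearer those of the mitosis genes, with at least 1 box in 15 of the 23 (65.2%) and at least 2 in 9 (39.1%). CDK inhibitors and anti-proliferative genes had at least 1 CCAAT box in 8 of 12 windows (66.7%). Neither motif was found in the windows of Mad2l1, Birc5, Nuf2 and Nusap1, which says only that these letters are not in those 300 bases. A match is a description of the sequence and was not set against any measure of binding.

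**Figure D1:**
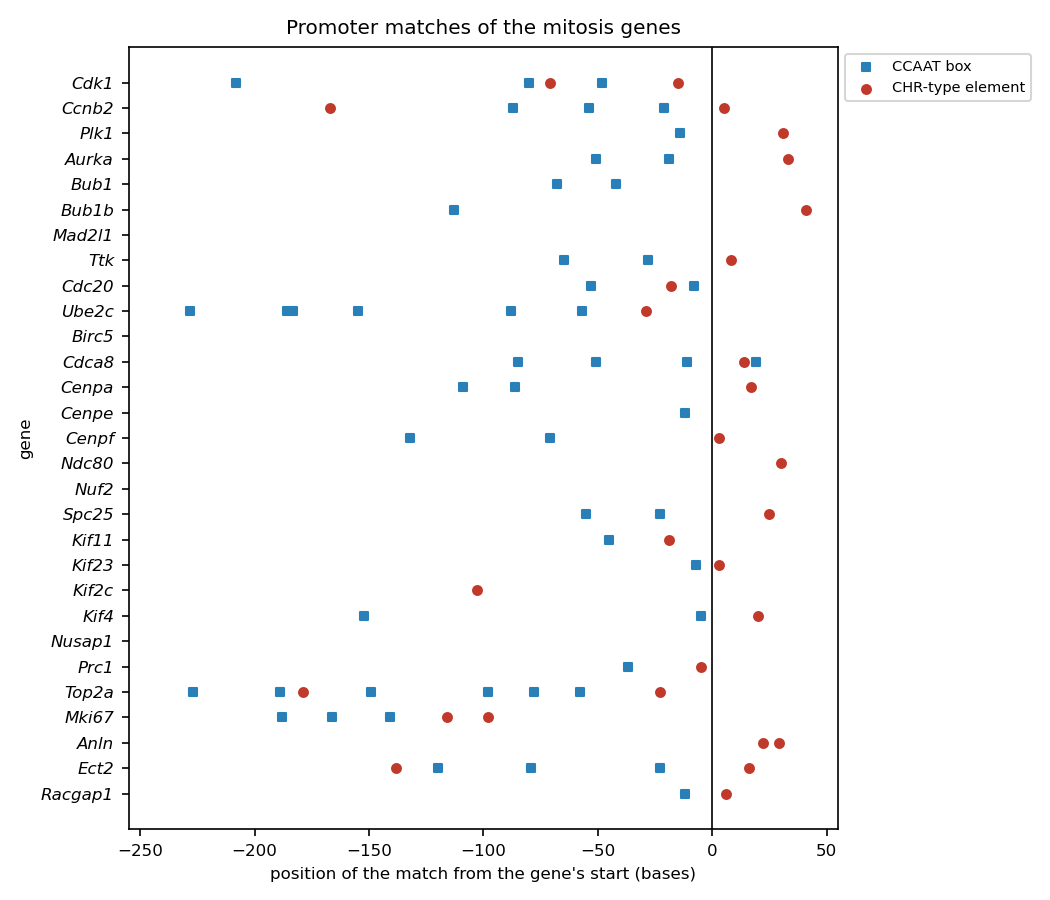
Each row is a mitosis gene with a promoter window, and the x axis is the distance of a match from the start of the gene in bases. Circles are CHR-type matches and squares are CCAAT boxes; for 21 of 29 genes a circle lies within 50 bases of the start, with squares mostly to its left.

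Values are the deposited intensities, whose mean without the lowest and highest 2% of values is 100 on every array. Differences are on the log2 scale after adding 6.75 to each intensity, and each is given with its limma standard error. That error rests on 1 moderated estimate of spread per gene, shared by all 10 populations. It is therefore not the spread of the arrays quoted beside it. A gene was called when its adjusted p was under 0.05 (limma, Benjamini-Hochberg over all 14063 genes tested) and its log2 difference was at least 1 in size, and "rose" or "fell" is used of called genes alone. Intensities of different probe sets are not read as relative amounts of RNA. A marker sum adds such intensities, so the brightest probe sets weigh most in it. In most populations the markers fitted the label, and 3 departures bear on the results. Summed over 4 primary granule genes (Mpo, Elane, Prtn3, Ctsg), which mark promyelocytes, the intensity was 269 and 1171 in Neutrophil but 7431 and 7844 in Monocyte. The same sum was highest in LinNeg, at 16180 and 16640, was 84.7 and 75.4 in Erythroblast, and lay between 27.9 and 185 on the lymphoid arrays. Monocyte also carried the 6 secondary and tertiary granule genes of neutrophils, at 57440 and 47440 against 77230 and 63470 in Neutrophil. The same held for 4 receptor genes of mature neutrophils (Cxcr2, Csf3r, Il1r2, Fpr2), at 9703 and 7249 in Monocyte against 16560 and 14110 in Neutrophil. The 6 monocyte and macrophage genes summed to 14330 and 12750 in NK, above the 5589 and 11380 of Monocyte. None of the markers was listed at 0 on any array.

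All 35 mitosis genes differed among the 10 populations by the F test of the limma model, as did 76.8% of all genes tested. All 35 were highest in Erythroblast. On the mean log2 level over the 35 genes the order was Erythroblast (11.27), Monocyte (9.12), LinNeg (8.84), KSL (8.39), Neutrophil (7.92), NK (6.96), B (6.89), NKT (6.23), CD4T (6.08) and CD8T (5.71). The second place was taken by Monocyte for 22 genes, by LinNeg for 12 and by KSL for 1, Kif23. The lowest place fell to CD8T for 22 genes, to CD4T and to NKT for 6 each, and to B for Racgap1. In bulk RNA of sorted cells, fewer dividing cells and less mitotic RNA per cell cannot be told apart.

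**Figure D2:**
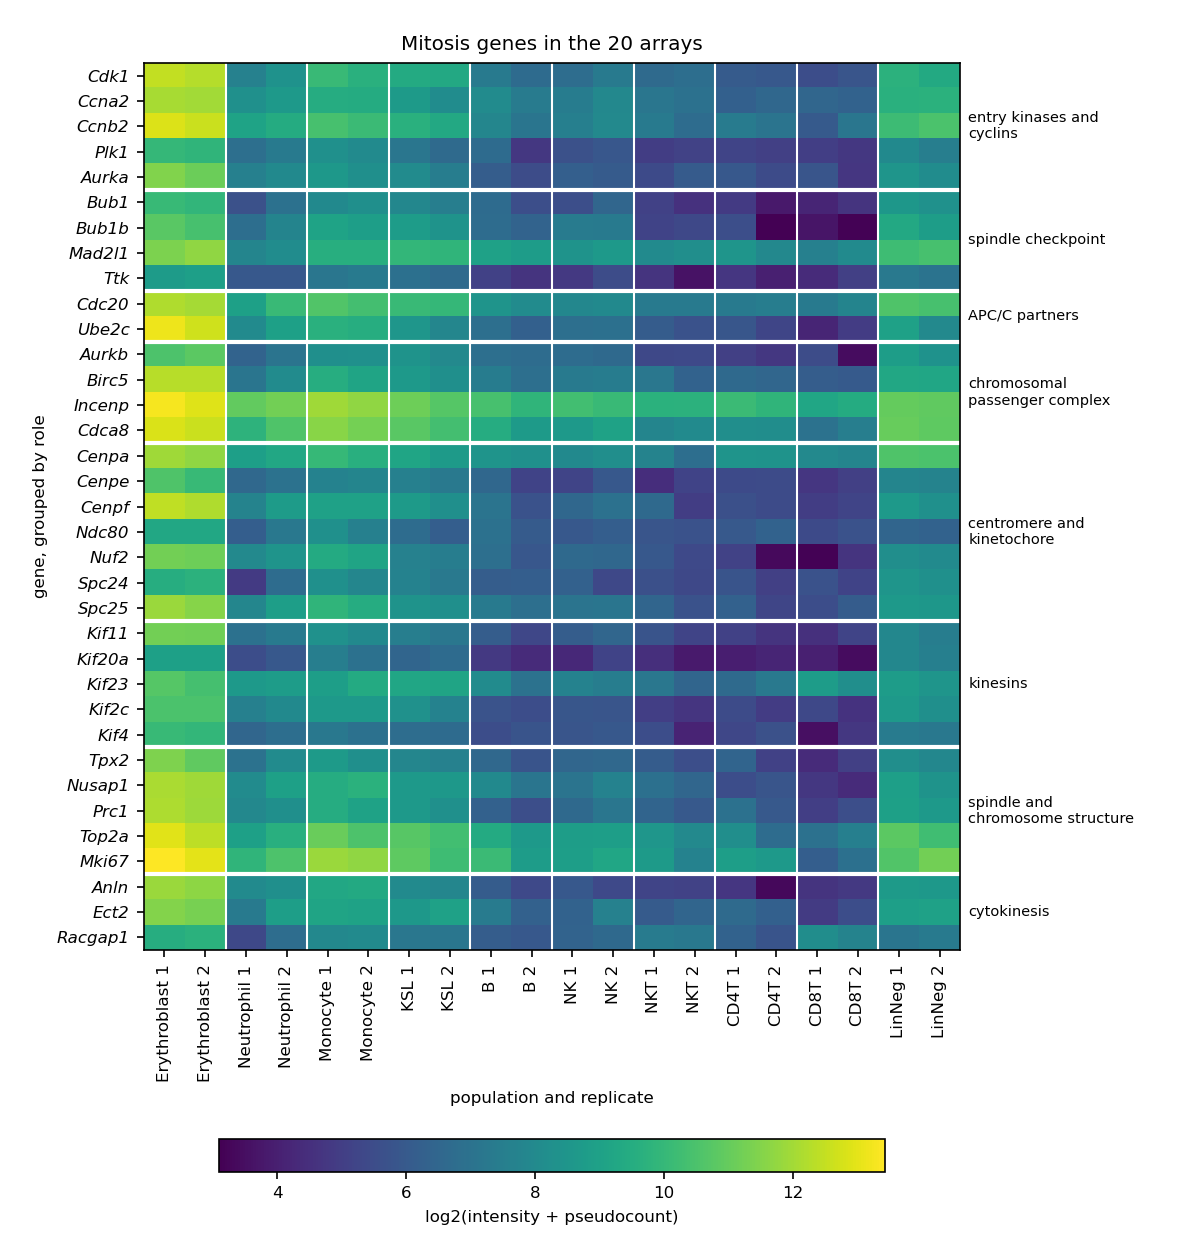
Rows are the 35 mitosis genes grouped by role, columns are the 20 arrays grouped by population, and the colour is log2(intensity + 6.75). The 2 Erythroblast arrays are the brightest columns in every row, the T cell arrays are among the darkest, and Kif23 and Racgap1 brighten in CD8T.

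Cdk1 and Mki67 are given array by array. The population means of Cdk1 followed this order, although arrays of some neighbouring populations overlapped. Mki67 departed from it, with B above NK and CD4T above NKT by their means. Cdk1, the kinase that starts mitosis, was at 5617 and 4954 in Erythroblast, 195 and 325 in Neutrophil, 1095 and 809 in Monocyte and 666 and 637 in KSL. In lymphoid cells Cdk1 stood at 155 and 98.6 in B, 104 and 153 in NK cells, 95.1 and 107 in NKT, 59.6 and 54.6 in CD4T and 39.3 and 50.1 in CD8T, and in LinNeg at 837 and 652.5. No lymphoid array reached the lowest Neutrophil array. Mki67, the chromosome surface protein stained as Ki-67, was at 10960 and 8280 in Erythroblast, 916.5 and 1503 in Neutrophil, 3757 and 3354 in Monocyte and 1854 and 1169 in KSL. Its lymphoid values were 1117 and 436 in B, 473 and 587 in NK cells, 421 and 197 in NKT, 462 and 391 in CD4T and 66.9 and 114 in CD8T, beside 1572 and 2419 in LinNeg. For Mki67 the B arrays lay far apart, and the first one stood within the range of the Neutrophil arrays.

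Over the 10 population means, the Pearson r of a gene with the mean profile of the other members was lowest for Racgap1 (0.63), Kif23 (0.86) and Ndc80 (0.90) and highest for Cdk1, Ccnb2 and Plk1 (0.993 each). These r describe 10 points that share arrays and scaling. The 10 non-members with the most similar profile were Cdca3, Ncaph, Tacc3, Aspm, Spag5, Parpbp, Hmmr, Hrob, H2ax and Sgo1, with r from 0.995 for Cdca3 to 0.986 for Sgo1. Of these, Ncaph, Aspm, Hmmr and Sgo1 stood on a list of 45 further mitosis genes drawn up beside the members.

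Erythroblast was set against LinNeg to ask how red cell precursors differ from cells negative for lineage markers. All 35 mitosis genes rose in Erythroblast, where 14.6% of all genes tested were called higher. The median log2 difference was 2.39 over the 35 genes and -0.19 over all genes. In each of the 35 genes both Erythroblast arrays stood above both LinNeg arrays, as they did in 31.7% of all genes. The count was 31 to 35 when any 1 array was left out.

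The largest rise was that of Ube2c, at 9071 and 6505 in Erythroblast against 513 and 245 in LinNeg, a log2 difference of 4.41 ± 0.37 (SE, adjusted p = 7.4e-09). Its partner Cdc20, which activates the anaphase-promoting complex, was at 4642 and 4234 in Erythroblast against 1545 and 1375 in LinNeg, a difference of 1.60 ± 0.25 (SE, adjusted p = 1.9e-05). Cenpf, a large protein of the outer kinetochore, reached 5523 and 4619 in Erythroblast against 398 and 307 in LinNeg and differed by 3.83 ± 0.45 (SE, adjusted p = 5.6e-07). Kif11, the kinesin that pushes the spindle poles apart, was at 2372 and 2302 in Erythroblast against 231 and 173.5 in LinNeg, a difference of 3.50 ± 0.32 (SE, adjusted p = 2.4e-08). In all 4 genes the paired arrays of a population lay close together relative to the gap between populations. Among the entry kinases and cyclins the differences ran from 2.15 to 2.97 over the 5 genes. The 5 genes of spindle and chromosome structure ran from 2.16 for Top2a, which untangles sister DNA, to 3.37 for Nusap1, which bundles spindle microtubules.

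The 4 spindle checkpoint genes lay at the low end, with differences from 1.22 to 1.69. Mad2l1, which inhibits Cdc20 until chromosomes are attached, was at 2657 and 3380 in Erythroblast against 1197 and 1370 in LinNeg, the smallest difference at 1.22 ± 0.20 (SE, adjusted p = 3.7e-05), which was not called after quantile normalization. Kif20a, a kinesin of cytokinesis, and Spc24, a subunit of the Ndc80 complex, came next. Kif20a was at 487.5 and 489 in Erythroblast against 229.6 and 179.9 in LinNeg and differed by 1.24 ± 0.37 (SE, adjusted p = 0.0087), a call that was lost without the second LinNeg array. For Spc24 the arrays were 737 and 837 in Erythroblast and 347 and 305 in LinNeg, a difference of 1.25 ± 0.44 (SE, adjusted p = 0.023) that was lost without any 1 of these 4 arrays. Bub1 was also not called without the second LinNeg array, and Bub1b, a checkpoint protein that binds Cdc20, not without that array or the first Erythroblast array. LinNeg itself held erythroid RNA: 9 erythroid markers summed to 60200 and 47300 in Erythroblast and 13960 and 11230 in LinNeg, and to 1845 and 586 in KSL. Their part in these differences was not tested.

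**Figure D3:**
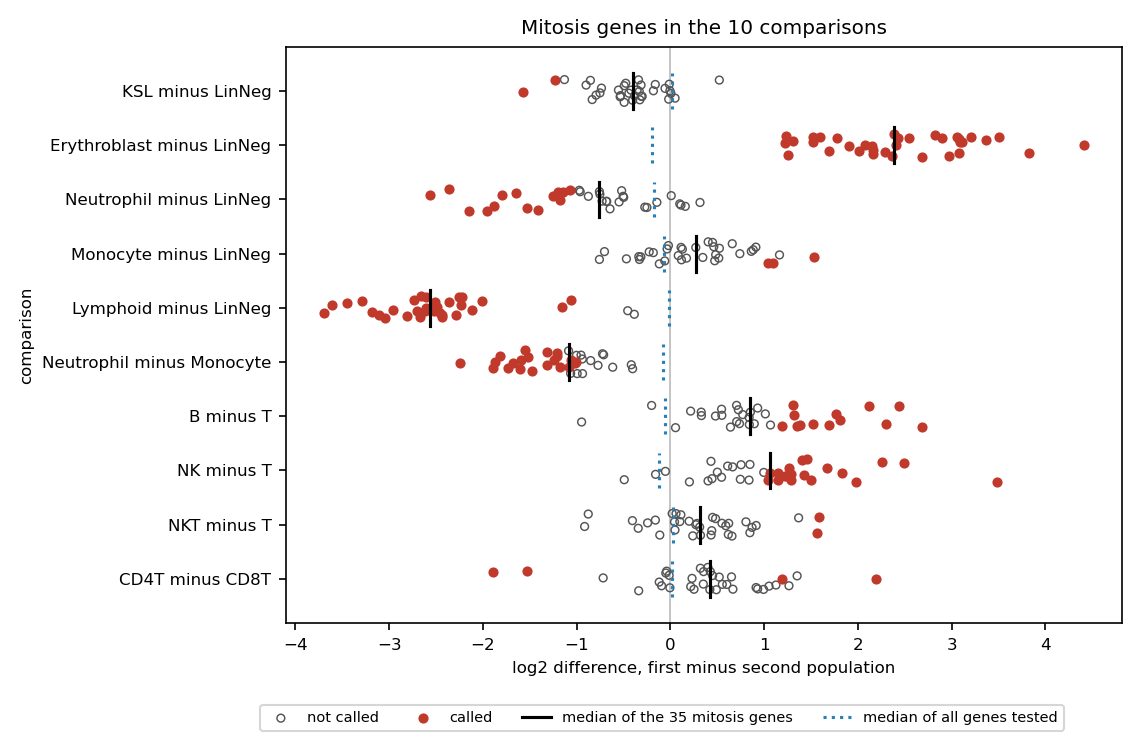
Each row is a comparison and each point a mitosis gene at its log2 difference, first population minus second; filled points are called, open points are not. The solid bar is the median of the 35 genes and the dotted bar that of all genes tested: the 35 points of Erythroblast lie right of 1, and 33 of 35 points of the lymphoid mean are called on the left.

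KSL was set against LinNeg to set the stem-enriched fraction apart within lineage-negative cells. Of the 35 mitosis genes 2 fell in KSL and 0 rose, where 2.45% of all genes tested were called lower; at an unadjusted limma p under 0.05, 7 were lower and 0 higher. Cenpa, the histone H3 variant that marks centromeres, was at 566 and 421 in KSL against 1516 and 1423 in LinNeg, a difference of -1.58 ± 0.23 (SE, adjusted p = 0.00032). The other probe sets of Cenpa were far dimmer, and one had the opposite sign, at 82.6 and 45.7 in KSL against 37.6 and 42.6 in LinNeg. Ccna2, cyclin A2, was at 422.5 and 273 in KSL against 795 and 814 in LinNeg and differed by -1.23 ± 0.24 (SE, adjusted p = 0.0035), and without the second KSL array Cenpa alone was called. The arrays of Cenpa and Ccna2 did not overlap between the populations. Markers of other cells moved the same way: the primary granule genes summed to 9928 and 4580 in KSL against 16180 and 16640 in LinNeg, and the monocyte and macrophage genes to 984 and 343 in KSL against 2584 and 2681 in LinNeg. Between the KSL arrays, 33 of the 35 mitosis genes were higher on the first, by a median of 0.37 on the log2 scale, while 50.3% of all genes tested were higher on the second. These 2 marker sums and that of the erythroid markers were also higher on the first array. Their part in the KSL differences was not tested.

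The median log2 difference over the 35 genes was -0.40, against 0.01 over all genes, and 32 of the 35 differences were negative. In 20 genes both KSL arrays lay below both LinNeg arrays, as they did in 25.6% of all genes. Kif20a was next, at 81.1 and 98.0 in KSL against 229.6 and 179.9 in LinNeg, with a difference of -1.13 ± 0.37 (SE, adjusted p = 0.069) that was not called. Cenpf, Ndc80 and Kif23 had the opposite sign. Kif23, the kinesin of the central spindle, was at 584 and 546 in KSL against 436 and 351 in LinNeg, a difference of 0.52 ± 0.31 (SE, adjusted p = 0.38).

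Monocyte and Neutrophil were each set against LinNeg, so both comparisons share the LinNeg arrays, and then against each other. In Monocyte 3 of the 35 mitosis genes rose and 0 fell, where 12.6% of all genes were called higher; at an unadjusted limma p under 0.05, 8 were higher and 2 lower. Ndc80, the subunit of the kinetochore complex that grips microtubules, was at 304 and 185 in Monocyte against 82.0 and 74.0 in LinNeg, a difference of 1.53 ± 0.36 (SE, adjusted p = 0.0018). Spc25, of the same complex, was at 919.9 and 715 in Monocyte against 408 and 375 in LinNeg, a difference of 1.04 ± 0.35 (SE, adjusted p = 0.023). Ube2c was at 793 and 735 in Monocyte against 513 and 245 in LinNeg and differed by 1.09 ± 0.37 (SE, adjusted p = 0.025). Without the second LinNeg array, or without the first Monocyte array, Ndc80 was the 1 gene still called, and Spc25 also needed the first LinNeg array and Ube2c the second Monocyte array. Nuf2, which pairs with Ndc80, was at 678 and 549.7 in Monocyte against 285 and 253 in LinNeg, with a difference of 1.16 ± 0.48 (SE, adjusted p = 0.06) that was not called. Of the 12 genes with the opposite sign, Mad2l1 (-0.76) and Cenpa (-0.70) were furthest below 0, followed by Kif20a, Aurkb, Bub1, Spc24, Kif4, Ccna2, Bub1b, Ccnb2, Cdc20 and Cenpe, from -0.47 to -0.02, and none reached the size for a call. The primary granule sum was 7431 and 7844 in Monocyte against 16180 and 16640 in LinNeg, and its part was not tested.

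In Neutrophil 14 of the 35 genes fell against LinNeg and 0 rose, where 26.8% of all genes were called lower; at an unadjusted limma p under 0.05, 19 were lower and 0 higher. The median difference was -0.76, against -0.17 over all genes. All 4 spindle checkpoint genes were among the 14, as were 3 of the 5 entry kinases and cyclins (Cdk1, Ccna2 and Ccnb2) and 1 of the 5 kinesins (Kif20a). Spc24 was at 22.7 and 101 in Neutrophil against 347 and 305 in LinNeg, the largest difference at -2.56 ± 0.44 (SE, adjusted p = 6.5e-05). Mad2l1 was at 215 and 274 in Neutrophil against 1197 and 1370 in LinNeg, a difference of -2.37 ± 0.20 (SE, adjusted p = 8.1e-09). The checkpoint kinase Bub1 was at 43.4 and 118 in Neutrophil against 376.5 and 312 in LinNeg, a difference of -2.15 ± 0.45 (SE, adjusted p = 0.00047). In these 3 genes both Neutrophil arrays lay below both LinNeg arrays, as they did in 43.2% of all genes. The Neutrophil arrays differed widely from each other in Spc24 and Bub1.

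Ube2c, Incenp, Ndc80, Nuf2 and Kif23 had the opposite sign, with differences from 0.01 to 0.32 that were not called. Nuf2 was at 244 and 340.1 in Neutrophil against 285 and 253 in LinNeg, and Ube2c at 258 and 493 in Neutrophil against 513 and 245 in LinNeg, with overlapping arrays in both. Within the Ndc80 complex, then, Ndc80, Nuf2 and Spc25 differed from LinNeg by 0.32, 0.10 and -0.27, and Spc24 by -2.56. The count of 14 was 8 without the first Neutrophil array and 18 without the second. The primary granule sum was 269 and 1171 in Neutrophil against 16180 and 16640 in LinNeg, so markers of promyelocytes moved with the mitosis genes here. They did not in Erythroblast, where all 35 mitosis genes were highest and the sum was 84.7 and 75.4. The part of these markers was not tested.

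Against Monocyte, all 35 genes were lower in both Neutrophil arrays than in both Monocyte arrays, as were 32.4% of all genes, and 21 of the 35 fell, where 9.56% of all genes were called lower. The median difference was -1.09, against -0.08 over all genes. Spc24 was at 22.7 and 101 in Neutrophil against 304 and 222 in Monocyte, a difference of -2.25 ± 0.44 (SE, adjusted p = 0.0013). Racgap1, the GTPase-activating protein of cytokinesis, was at 34.0 and 106 in Neutrophil against 232.5 and 256.5 in Monocyte, a difference of -1.89 ± 0.33 (SE, adjusted p = 5e-04). Cdk1 was at 195 and 325 in Neutrophil against 1095 and 809 in Monocyte, a difference of -1.87 ± 0.26 (SE, adjusted p = 5.1e-05). By role, all 4 spindle checkpoint genes fell, 4 of 5 genes of spindle and chromosome structure, 3 of 4 chromosomal passenger genes and 3 of 7 centromere and kinetochore genes. The smallest differences, in Kif23 (-0.40) and Kif4 (-0.42), were not called.

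The Neutrophil replicates stood apart. All 35 mitosis genes were higher in the second Neutrophil array, by a median of 0.66 on the log2 scale, while 49.1% of all genes tested were higher there. Primary granule markers moved with them, summing to 269 on the first array and 1171 on the second. Without the first Neutrophil array the count against Monocyte was 5, without the second it was 25, and without the first Monocyte array it was 8. The primary granule markers were also far higher in Monocyte, and their part in the difference was not tested.

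The genes of DNA replication, which act in S phase before mitosis, gave a different picture in Neutrophil. Of 28 such genes 26 fell against LinNeg, where 26.8% of all genes were called lower. Against Monocyte 26 fell, where 9.56% of all genes were called lower. The median differences were -3.23 against LinNeg and -2.34 against Monocyte, with -0.17 and -0.08 over all genes. In both comparisons Cdc45 and Gins4 were the 2 not called. Cdc6, which loads the replicative helicase, was at 11.4 and 21.1 in Neutrophil, 422 and 260.4 in Monocyte and 767 and 842 in LinNeg. Mcm3, a subunit of that helicase, was at 50.8 and 53.5 in Neutrophil, 556 and 502 in Monocyte and 1632 and 1738 in LinNeg. The Neutrophil arrays of Mcm3 were the lowest of the 20, and those of Cdc6 were below all arrays but the first of CD8T. Over the 35 mitosis genes, by contrast, the median rank of Neutrophil was 5 of 10, ahead of NK at 6 and B at 7.

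On the mean log2 level of the DNA replication list, Neutrophil was the lowest population at 6.41, below CD4T at 7.20. On the mitosis list Neutrophil, at 7.92, stood above NK at 6.96. The replication count against LinNeg was 26 without either Neutrophil array, and against Monocyte it was 23 without the first and 27 without the second. The difference between the 2 lists was not itself tested. In Erythroblast 11 of the 28 replication genes rose against LinNeg, where 14.6% of all genes were called higher, with a median difference of 0.79. In Monocyte 12 of 28 fell against LinNeg, where 17.6% of all genes were called lower. Without the first LinNeg array the 11 became 7, and without the second Monocyte array the 12 became 7.

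**Figure D4:**
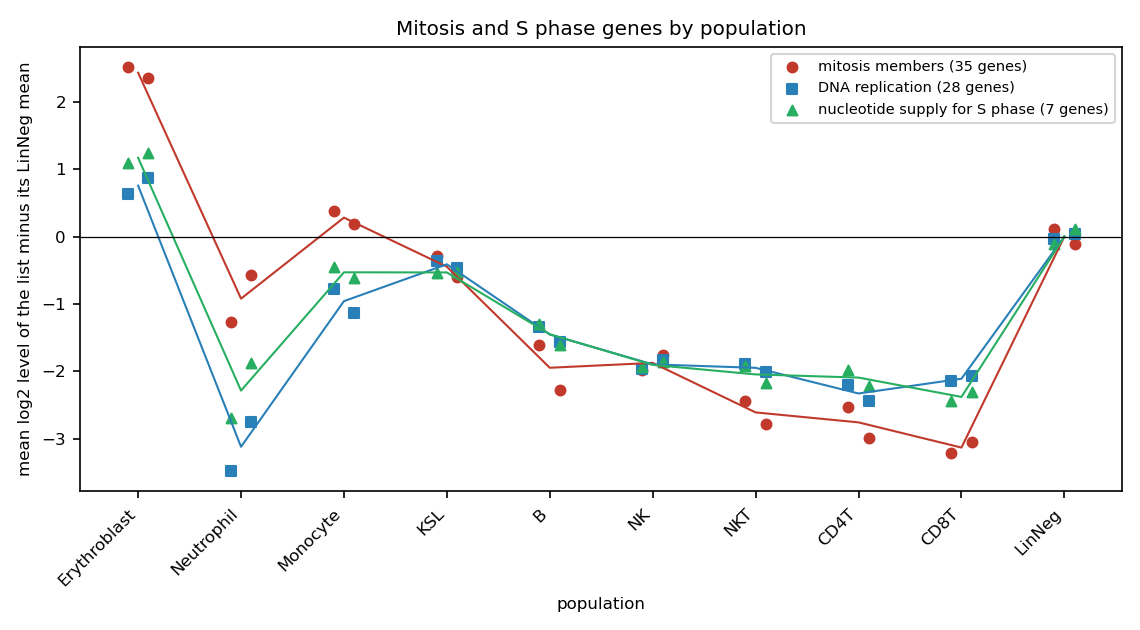
Points are the mean log2 level of each gene list on each array and lines join the population means, both set to 0 at the list's own mean in LinNeg. In Neutrophil the DNA replication genes lie far below the mitosis genes, whereas in the lymphoid populations the mitosis genes are as low as the DNA replication genes or lower.

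The mean of the 5 lymphoid populations was set against LinNeg. Of the 35 mitosis genes 33 fell and 0 rose, where 13.4% of all genes were called lower, and the median difference was -2.56 against -0.02 over all genes. At an unadjusted limma p under 0.05, 33 were lower and 0 higher. The p-values rest on the spread between arrays of a population and leave out the spread among the 5 populations. In 32 genes every lymphoid array lay below both LinNeg arrays, as in 18.6% of all genes. NK carried monocyte and granule markers, and without it 33 genes were called as well. Primary granule markers were far lower on every lymphoid array than the 16180 and 16640 of LinNeg, and their part in the lymphoid differences was not tested.

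Bub1b had the largest difference, with a lowest, median and highest lymphoid value of 1.87, 37.5 and 163 against 629.6 and 459.9 in LinNeg, a difference of -3.70 ± 0.39 (SE, adjusted p = 3.5e-07) that was -2.47 with the mean of all its probe sets. Anln, the scaffold of the contractile ring, had lymphoid values of 3.18, 29.7 and 61.4 against 417 and 387 in LinNeg, a difference of -3.61 ± 0.27 (SE, adjusted p = 4.1e-09). For Kif20a the lymphoid values were 4.21, 12.3 and 29.7 against 229.6 and 179.9 in LinNeg, a difference of -3.45 ± 0.29 (SE, adjusted p = 2e-08). The highest lymphoid array of each was B or NK. Ndc80, at 36.7, 55.8 and 118 in lymphoid arrays against 82.0 and 74.0 in LinNeg, and Racgap1, at 48.0, 84.6 and 279.7 against 132 and 156, were the 2 genes not called, with differences of -0.39 ± 0.28 (SE, adjusted p = 0.3) and -0.46 ± 0.26 (SE, adjusted p = 0.18). Kif23 fell, with a difference of -1.15 ± 0.24 (SE, adjusted p = 0.00075) that was not called without the first LinNeg array, and its lymphoid and LinNeg arrays overlapped, with a highest lymphoid value of 437 in CD8T.

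Among lymphocytes B, NK and NKT were each set against the mean of CD4T and CD8T, so these comparisons share the 4 T cell arrays. In NK 19 of the 35 genes rose and 0 fell, where 9.02% of all genes were called higher, with a median difference of 1.06 against -0.12 over all genes. In B 13 rose and 0 fell, where 5.91% of all genes were called higher, with a median of 0.85 against -0.06. In NKT 2 rose and 0 fell, where 1.97% of all genes were called higher, with a median of 0.31 against 0.02. At an unadjusted limma p under 0.05, 27 were higher and 0 lower in NK, 25 and 1 in B, and 9 and 2 in NKT.

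Bub1b was at 163 and 154 in NK, 100.4 and 77.2 in B and 29.3 and 33.7 in NKT, against 41.2 and 1.87 in CD4T and 6.17 and 2.27 in CD8T. The NK and B arrays lay above all 4 T cell arrays, as in 17.5% of all genes for NK and 15.8% for B. Of those 4 T cell arrays 3 were below the pseudocount of 6.75, the 25th percentile of all intensities. On this scale its difference was 3.48 ± 0.43 (SE, adjusted p = 5.4e-06) in NK and 2.68 ± 0.43 (SE, adjusted p = 0.00012) in B. The size depends on the pseudocount and is not a measured fold: it was 4.39 in NK and 3.55 in B with the pseudocount at the 5th percentile, and 2.46 in NK and 1.76 in B with it at the median, and the gene was called each time. Nusap1 was at 128 and 201 in NK, 251 and 133.5 in B and 115 and 84.4 in NKT, against 40.1 and 50.3 in CD4T and 20.7 and 13.7 in CD8T. Its differences were 2.26 ± 0.27 (SE, adjusted p = 3.7e-06) in NK, 2.44 ± 0.27 (SE, adjusted p = 1.3e-06) in B and 1.59 ± 0.27 (SE, adjusted p = 0.0014) in NKT. Another probe set of Nusap1 had the opposite sign in NK and B, and with the mean of all its probe sets the calls in NK and NKT were lost. Of the 12 genes that rose in NK and had another probe set above the filter, 4 had one of opposite sign. Besides Nusap1 these were Bub1 (-0.314), Spc25 (-0.016) and Kif11 (-0.009).

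Nuf2 was the other gene among the 3 largest rises in both NK and B, at 93.8 and 85.9 in NK, 112 and 52.5 in B and 54.4 and 35.1 in NKT, against 29.0 and 3.71 in CD4T and 2.27 and 18.8 in CD8T. Its difference of 1.56 ± 0.41 (SE, adjusted p = 0.034) in NKT was lost without either NKT array, the second CD4T array or the first CD8T array, and after quantile normalization or centring of each array on its median. Racgap1 and Kif23 had the opposite sign in both B and NK, at -0.95 and -0.20 in B and -0.49 and -0.16 in NK, and none of the 4 was called. Cenpa, at -0.05 in NK, was also opposite there. In NKT 7 genes were opposite and not called: Kif23 (-0.92), Cenpa (-0.88), Ttk, Cenpe, Kif2c, Cdc20 and Ndc80, the last 5 from -0.41 to -0.11.

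Several of these counts turned on 1 array. In B 33 of the 35 genes were higher on the first array, by a median of 0.68 on the log2 scale, while 48.5% of all genes tested were higher on the second. Without the first B array 6 genes were called. Without the second NK array 9 genes were called in that comparison. The 2 calls of NKT became 1 without the second NKT array or the second CD4T array, and 6 without the first CD4T array. In NK the 6 monocyte and macrophage markers summed to 14330 and 12750, against 1184 and 855 in CD4T and 279 and 422 in CD8T, and the 6 secondary and tertiary granule markers to 7788 and 6289, against 311 and 276 in CD4T and 91.6 and 72.9 in CD8T. Their part in the NK differences was not tested. In B the 6 early B markers summed to 1069 and 1045, most of it from Vpreb3 at 968 and 943.5, while Vpreb1 was at 8.06 and 10.9 and Dntt at 3.53 and 4.25. The 5 plasma cell markers summed to 3549 and 3055 in B and 2619 and 3044 in NK, against 1110 and 1005 in CD4T and 599 and 728 in CD8T. Of these, Jchain was at 632 and 379 in B and 15.3 and 506 in NK, and Xbp1, at 2426 and 2341, made up most of the sum in NK. The part of the early B and plasma cell markers in these differences was not tested either.

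CD4T and CD8T were compared with each other as the 2 conventional T cell populations. Of the 35 genes 2 rose in CD4T, where 2.13% of all genes were called higher, and 2 fell, where 1.07% were called lower. With each array centred on its median, 1 of the 35 rose and 2 fell, and over all genes 248 were called higher and 194 lower, in place of 300 and 151. Mki67 was at 462 and 391 in CD4T against 66.9 and 114 in CD8T, a difference of 2.19 ± 0.39 (SE, adjusted p = 0.0022), and Prc1, which crosslinks the microtubules of the central spindle, was at 119 and 57.4 in CD4T against 25.6 and 41.2 in CD8T, a difference of 1.19 ± 0.32 (SE, adjusted p = 0.043). Neither call held without the first CD8T array, and that of Prc1 was also lost without the first CD4T array, without the second CD8T array, and without either KSL or either LinNeg array.

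The 2 genes that fell in CD4T encode the partners of centralspindlin, the complex that bundles the central spindle and calls Ect2 to the cleavage site. Racgap1 was at 73.8 and 48.0 in CD4T against 279.7 and 206 in CD8T, a difference of -1.90 ± 0.33 (SE, adjusted p = 0.002), which was called with each array left out. Kif23 was at 96.0 and 147 in CD4T against 437 and 290.2 in CD8T, a difference of -1.53 ± 0.31 (SE, adjusted p = 0.007), which was lost without the first CD4T or the first CD8T array. In each of the 2 genes both CD4T arrays lay below both CD8T arrays, as they did in 22.5% of all genes. Without the first CD8T array 2 genes were called in place of 4, 1 in each direction, and Racgap1 was the one that fell.

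With these values CD8T ranked 3 of the 10 populations for Racgap1, below Erythroblast at 734 and 826 and beside Monocyte at 232.5 and 256.5, and above KSL at 139 and 136 and LinNeg at 132 and 156. The pair parted in NKT, where Racgap1 was at 161 and 144 and Kif23, at 139 and 81.1, had its lowest mean level. A second probe set of Racgap1 gave 74.3 and 35.4 in CD4T and 169 and 225 in CD8T. The other probe sets of Kif23 were near background in both populations, at 5.25 and 13.1 in CD4T and 2.98 and 1.61 in CD8T for one and 5.53 and 0.95 in CD4T and 5.96 and 4.68 in CD8T for the other, and one of them had the opposite sign. Ect2, the exchange factor that this complex recruits, went the other way without being called, at 95.7 and 70.2 in CD4T against 22.9 and 39.4 in CD8T, a difference of 1.26 ± 0.44 (SE, adjusted p = 0.13). Cdk1, at 59.6 and 54.6 in CD4T against 39.3 and 50.1 in CD8T, differed by 0.32 ± 0.26 (SE, adjusted p = 0.63) and was not called. Besides Racgap1 and Kif23, 8 genes were lower in CD4T without being called: Anln (-0.72), Ttk (-0.34), and Cdc20, Bub1, Spc25, Spc24, Ccna2 and Kif11, from -0.12 to -0.01.

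**Figure D5:**
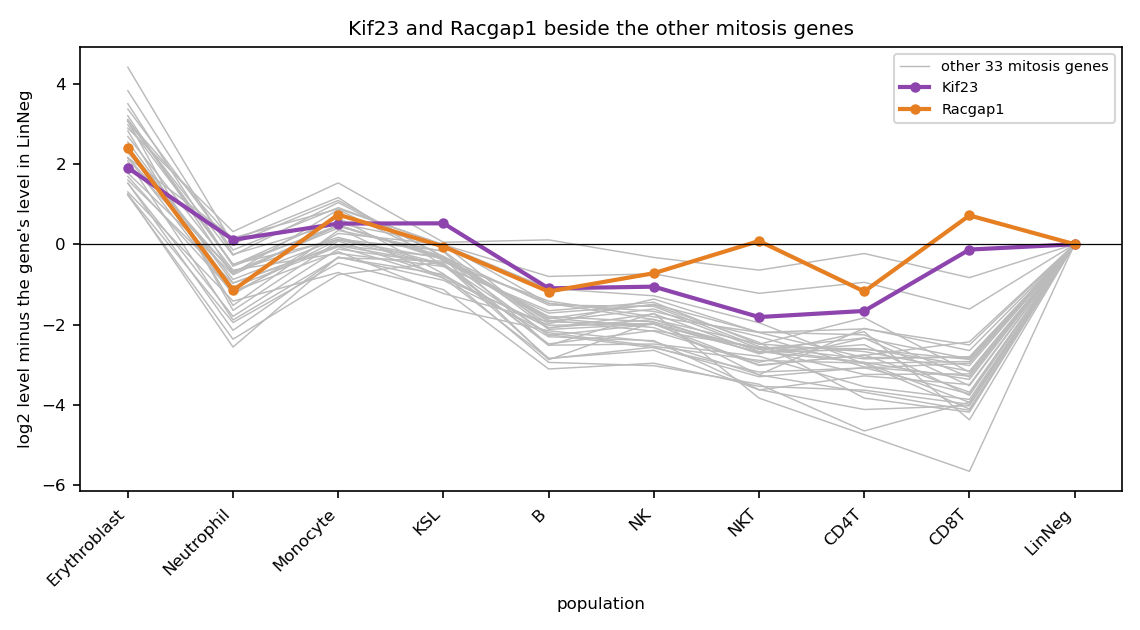
Each line is a mitosis gene, drawn as its mean log2 level in each population minus its level in LinNeg. Kif23 and Racgap1 lie within the range of the other 33 genes in Erythroblast, Neutrophil and Monocyte, and in CD8T they lie close to or above their LinNeg level, higher than every other member.

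A list of 45 further mitosis genes, of which 42 were tested, was read beside the 35. In Erythroblast 36 of the 42 rose and 1, Cep55, fell against LinNeg, where 14.6% of all genes were called higher and 29.3% lower. The median difference was 1.99 over the 42. Cdc25c, the phosphatase that activates Cdk1, was at 771 and 601 in Erythroblast against 57.9 and 39.0 in LinNeg, a difference of 3.66 ± 0.46 (SE, adjusted p = 1.3e-06). Depdc1a was at 1067 and 1017 in Erythroblast against 86.5 and 73.6 in LinNeg, a difference of 3.60 ± 0.34 (SE, adjusted p = 3.3e-08). In Neutrophil 22 of the 42 fell and 2 rose, Cdc25b and Mastl, where 26.8% of all genes were called lower and 15.7% higher. In the lymphoid mean 34 fell and 1, Cdc25b, rose, where 13.4% of all genes were called lower and 9.91% higher. Cep55, Cdc25b and Mastl are named here because of these counts, after their values were seen. In B 14 rose and 1 fell against T cells, where 5.91% of all genes were called higher and 7.08% lower. In NK 9 rose and 2 fell against T cells, where 9.02% of all genes were called higher and 5.57% lower. This list was put together with the patterns of the 35 genes known, so its counts are no independent support.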

How the data were processed

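Total RNA was isolated with ISOGEN, and an amount equal to 3000 cells was amplified in 2 cycles into biotinylated cRNA and hybridised to Affymetrix Mouse Genome 430 2.0 arrays, per the labels' protocols. The authors deposited 1 linear intensity per probe set and array for 45101 probe sets, with a mean near 100 on each array once the lowest and highest 2% are removed. How probes were summarised, background-corrected and scaled is not given in the sources used here. For arrays, the number of arrays limits the precision.

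Genes were named through the platform annotation, in which 34945 probe sets carry 1 symbol. For each of the resulting 18193 genes the brightest probe set was kept. The deposited intensities were turned into log2(intensity + 6.75), 6.75 being their 25th percentile, and the 14063 genes whose highest population mean exceeded 4.89, the median of all log2 values, were tested. One limma model (limma 3.58.1 in R 4.3.3, lmFit and eBayes with a trend) covered the 20 arrays with population as the factor and 10 residual degrees of freedom. P-values were adjusted by the Benjamini-Hochberg method over all genes tested. The code was tested on simulated data.

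The members and the lists were chosen with earlier results of these data known. Any member could be named; in each comparison those with the 3 largest called differences in a direction and those opposite in sign to the median were named, together with the 3 members least like the rest, the 10 non-members most like them, and up to 6 genes per further list with the widest range. The labels call the 2 arrays of a population biological replicates but do not say whether they came from separate animals, so p-values measure the spread between these samples. The shared replicate numbers were checked as pairs: of 45 pairs of populations, 1 had same-numbered arrays that deviated together with a correlation over 0.1, so the numbers were not used as pairs. Promoter motifs were counted in RefSeq windows with Python 3.11.15.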

Additional observations from a re-analysis of the deposited data

How the results depend on the processing

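Each count of mitosis genes was recomputed with 11 other settings and with each of the 20 arrays left out in turn, and the lymphoid count also without NK. Over the 146 calls of a member in a comparison, 4553 values were recomputed: 4282 stayed called in the same direction, 271 were no longer called and 0 reversed, and 64 of the 146 calls held under every setting. Requiring the log2 difference itself to exceed 1 (limma's treat) left 0 calls in KSL, 4 in Neutrophil against LinNeg, 0 in Monocyte, 0 in Neutrophil against Monocyte, 2 in B, 3 in NK, 0 in NKT and 0 between CD4T and CD8T. At an unadjusted treat p under 0.05 those 5 counts of 0 became 1 in KSL, 0 in Monocyte, 6 in Neutrophil against Monocyte, 1 in NKT and 2 between CD4T and CD8T (1 each way). Treat kept 27 of 35 calls in Erythroblast and 31 of 33 in the lymphoid mean. The NKT count of 2 was 1 with the pseudocount at the 5th percentile or at the median, quantile normalization, array median centring, the mean of all probe sets, or no variance trend. The mean of all probe sets gave 12 in NK, and dropping the variance trend gave 1 in Monocyte.

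With 1 array left out the counts ran from 1 to 2 in KSL, 31 to 35 in Erythroblast, 8 to 18 in Neutrophil against LinNeg, 1 to 4 in Monocyte, 32 to 33 in the lymphoid mean, 5 to 25 in Neutrophil against Monocyte, 6 to 19 in B, 9 to 21 in NK, 1 to 6 in NKT, 2 to 6 between CD4T and CD8T, and 35 to 35 in the F test. The single array of a population was then assumed to vary like the others. The lowest count came without KSL 2 in KSL, LinNeg 2 in Erythroblast, Neutrophil 1 in both Neutrophil comparisons, LinNeg 2 or Monocyte 1 in Monocyte, LinNeg 1 in the lymphoid mean, B 1 in B, NK 2 in NK, NKT 2 or CD4T 2 in NKT and CD8T 1 between CD4T and CD8T. Where the highest exceeded the full count, it came without Neutrophil 2 in both Neutrophil comparisons, any of the 4 T cell arrays in Monocyte, B 2 in B, CD8T 2 in NK, CD4T 1 in NKT and CD4T 2 between CD4T and CD8T.

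Adding the replicate number to the model as a replicate block left the counts at 2 in KSL, 35 in Erythroblast, 14 in Neutrophil against LinNeg, 3 in Monocyte, 33 in the lymphoid mean, 21 in Neutrophil against Monocyte, 13 in B, 19 in NK, 2 in NKT, 4 between CD4T and CD8T and 35 in the F test. The median difference of all genes between Erythroblast and LinNeg was -0.19 as deposited and -0.06 after quantile normalization, and that of the lymphoid mean was -0.02 as deposited and -0.12 after array median centring. The cause of the changed counts was not tested.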

Other observations

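The regulators of these genes were measured on the same arrays. Of 20 genes of the MuvB complex, FoxM1, B-Myb, the E2F family and the retinoblastoma proteins, 11 rose and 2 fell in Erythroblast against LinNeg, while 1 rose and 9 fell in Neutrophil and 1 rose and 10 fell in the lymphoid mean. Over all genes tested, 14.6% were called higher and 29.3% lower in Erythroblast, 15.7% higher and 26.8% lower in Neutrophil, and 9.91% higher and 13.4% lower in the lymphoid mean. E2f2, an activating E2F, reached 3178 and 2725 in Erythroblast, with 739.9 and 609 in Neutrophil, against 42.2 and 126 in LinNeg. It rose in Erythroblast by 5.19 ± 0.30 (SE, adjusted p = 4.8e-11) and in Neutrophil by 3.07 ± 0.30 (SE, adjusted p = 6.2e-08), and was the 1 gene of the list that rose in Neutrophil. E2f8, a repressing E2F, was at 5557 and 5255 in Erythroblast and 2.04 and 26.2 in CD8T, against 1076 and 1211 in LinNeg. Tfdp2, a partner of E2F proteins on DNA, was at 5428 and 4225 in Erythroblast against 242 and 308 in LinNeg, a difference of 4.10 ± 0.30 (SE, adjusted p = 1e-09), and at 79.3 and 57.7 in Neutrophil, a difference from LinNeg of -1.91 ± 0.30 (SE, adjusted p = 2.2e-05).

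Of 12 tested CDK inhibitors and anti-proliferative genes, 4 rose and 4 fell in Erythroblast against LinNeg, and 7 rose and 2 fell in Neutrophil. Among all genes, 14.6% were called higher and 29.3% lower in Erythroblast, and 15.7% higher and 26.8% lower in Neutrophil. The share that rose was above that of all genes in both. The share that fell was close to that of all genes in Erythroblast and below it in Neutrophil. Cdkn2d, the inhibitor p19 of Cdk4 and Cdk6, was at 3599 and 3199 in Erythroblast and 2301 and 2113 in Neutrophil, against 88.3 and 115.5 in LinNeg, with differences of 4.98 ± 0.17 (SE, adjusted p = 2.6e-14) in Erythroblast and 4.36 ± 0.17 (SE, adjusted p = 9.5e-13) in Neutrophil. Cdkn2c, the related p18, was at 2314 and 2621 in Erythroblast against 266 and 268 in LinNeg, a difference of 3.17 ± 0.23 (SE, adjusted p = 6.9e-10). Tob1, an anti-proliferative protein, was at 1297 and 1373 in Neutrophil against 144 and 135 in LinNeg, a difference of 3.20 ± 0.24 (SE, adjusted p = 1.5e-09). Of 7 genes of nucleotide supply for S phase, 4 rose in Erythroblast against LinNeg, where 14.6% of all genes were called higher. In Neutrophil against LinNeg 6 fell and 1 rose, where 26.8% of all genes were called lower and 15.7% higher. In the lymphoid mean against LinNeg 6 fell, where 13.4% of all genes were called lower. Tk1, thymidine kinase, was at 3360 and 3422 in Erythroblast and 54.5 and 142 in Neutrophil, against 628 and 651 in LinNeg.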
